A study of Homo sapiens with 8 samples.

Results

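The MYC, MAX and MXD network was examined in RNA-seq libraries of 2 renal cell carcinoma (RCC) cell lines cultured with or without branched-chain amino acids (BCAA). The network was taken as 10 genes chosen by their symbols as a family, with earlier results of these data known. They are the activators MYC, MYCN and MYCL, the shared partner MAX, and the antagonists MXD1, MXD3, MXD4, MXI1, MNT and MGA. All 10 genes were measured in 769-P cells, among 25431 genes listed for that line, and 9 were measured in CAKI-1 cells, among 24190 genes. MYCN was not analysed in CAKI-1.

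MYC, MYCN and MYCL are basic helix-loop-helix leucine zipper transcription factors that bind DNA only as a heterodimer with MAX, chiefly at the E-box, and recruit histone acetyltransferases and elongation factors. The MXD proteins, MXI1, MNT and MGA compete for MAX and for the same sites. MXD1, MXD3, MXD4, MXI1 and MNT recruit the SIN3 corepressor with its histone deacetylases, whereas MGA belongs to a variant polycomb repressive complex. MYC mRNA and protein are short-lived, and MYC drives ribosome production, nucleotide synthesis, glycolysis and entry into the cell cycle. Several MXD genes are known to be switched on when cells leave the cycle, while MXD3 is known from cells in S phase.

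The study asked how BCAA change gene expression in RCC cells, and its series held 4 groups of 2 libraries each, 8 libraries in all. Its figure legend for the RNA-seq gives n = 3, while 2 libraries per group were available here. Both lines, labelled as clear cell RCC cells, were kept for 16 hours in medium made up from amino acid-free powder with dialysed serum. The groups with BCAA were 769-P and CAKI-1 cells given isoleucine at 0.38 mM, leucine at 0.38 mM and valine at 0.17 mM, and the groups without BCAA were the same lines with none of the 3 amino acids added back. No genetic change was made to the cells in these 4 groups, each line is a single established culture line, and before the experiment 769-P and CAKI-1 were grown in different media. Nothing in the labels says that replicates came from separate cultures, so p-values measure only the spread between these libraries, which may be technical.

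Each value is a gene's read count over its library's size factor, and the tables of the cell lines were normalised separately, so levels were compared only within a line. Reads on listed genes ran from 39062721 to 64256834 per library in 769-P and from 30979773 to 47054568 in CAKI-1. In 769-P both libraries with BCAA (64256834 and 55829324 reads) were deeper than both without (39062721 and 40130258 reads), so depth and BCAA cannot be told apart there. The kidney lineage factor PAX8 had a mean value of 14892 in 769-P with BCAA and 9544 in CAKI-1 with BCAA, and VIM, KRT8 and KRT18 were present in both lines. CA9, the usual marker of clear cell carcinoma, was not analysed here. NDUFA4L2, another such marker, had a mean of 1.66 in 769-P with BCAA and 96.3 in CAKI-1 with BCAA. Markers of leukocytes, endothelium, hepatocytes and muscle were at low values or were not analysed, with the B cell gene CD79A the highest of them at a mean of 19.7 in 769-P with BCAA.

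The network includes genes that MYC and MAX themselves can bind, so the RefSeq promoter table (build GRCh38.p14) was searched for the E-box CACGTG, which reads the same on both strands, in the 250 bases before each start. Windows were found for 9 of the 10 genes, 14 in all, and MYC was not among them. The E-box lay in the windows of MXD4 and MNT, against 6.34% of 35116 promoters of the same length. These stretches are shown because they carry the recognition letters of the network beside the gene of an antagonist. Each is 30 bases on the minus strand, at chr4:2262330-2262359 for MXD4 and chr17:2401236-2401265 for MNT, outside the gene models, with the E-box in capitals.

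MXD4: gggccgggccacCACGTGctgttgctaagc

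MNT: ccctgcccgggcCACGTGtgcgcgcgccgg

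The windows of MXD3 and MXI1, the antagonists with the largest rise and with a fall called in both cell lines, held no E-box. They are shown for comparison as far as they lie outside the gene model, at chr5:177312758-177313002 on the minus strand for MXD3 and chr10:110207355-110207604 on the plus strand for MXI1. The MXI1 window shown is the one that ends just before its gene model begins.

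MXD3: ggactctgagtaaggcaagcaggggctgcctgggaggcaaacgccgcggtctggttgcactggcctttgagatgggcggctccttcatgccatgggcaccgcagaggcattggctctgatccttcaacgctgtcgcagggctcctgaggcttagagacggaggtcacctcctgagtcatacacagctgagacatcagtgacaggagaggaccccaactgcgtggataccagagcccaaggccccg

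MXI1: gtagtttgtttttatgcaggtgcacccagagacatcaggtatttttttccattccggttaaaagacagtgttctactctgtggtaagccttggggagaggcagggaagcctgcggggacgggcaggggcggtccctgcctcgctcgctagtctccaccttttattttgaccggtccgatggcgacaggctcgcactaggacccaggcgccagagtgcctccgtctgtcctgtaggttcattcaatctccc

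An E2F pattern, TTTNNCGC with C or G at both N positions and read on both strands, was found in the windows of MYCN and MGA and in 2.79% of promoters. The amino acid response pattern TGATGNAAN, bound by ATF4 and its partners, was in none of the members' windows and in 3.13% of promoters. A match describes letters in a window and says nothing of binding.

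MYC mRNA was lower with BCAA in both cell lines, by more in 769-P, and 8 of the 10 genes were called changed in 769-P and 2 of 9 in CAKI-1. In 769-P MYCN and MXD3 rose, whereas MYC, MAX, MXD1, MXI1, MNT and MGA fell. In CAKI-1 the called genes were MYC and MXI1, both lower with BCAA. Genes were called at an adjusted p under 0.05 (limma on log2(value + 1), Benjamini-Hochberg over all genes tested), with no minimum fold. By this rule 38.4% of all 22391 genes tested in 769-P were called, 20.3% higher and 18.2% lower, and 19.9% of 21347 genes tested in CAKI-1, 10.8% higher and 9.05% lower. The members' count thus stood above the share for all genes in 769-P and near it in CAKI-1. The share for all genes was larger when only genes averaging 10 or more were kept. Then 8930 of 16047 were called in 769-P and 4449 of 15550 in CAKI-1. In 769-P MYCN was not tested then, and 7 of the 9 members left were called. The same 2 members were called in CAKI-1. Whether the members exceed genes of like level was not tested. Fold changes below are with against without BCAA on the log2(value + 1) scale, which understates the change of genes with low values.

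**Figure D1:**
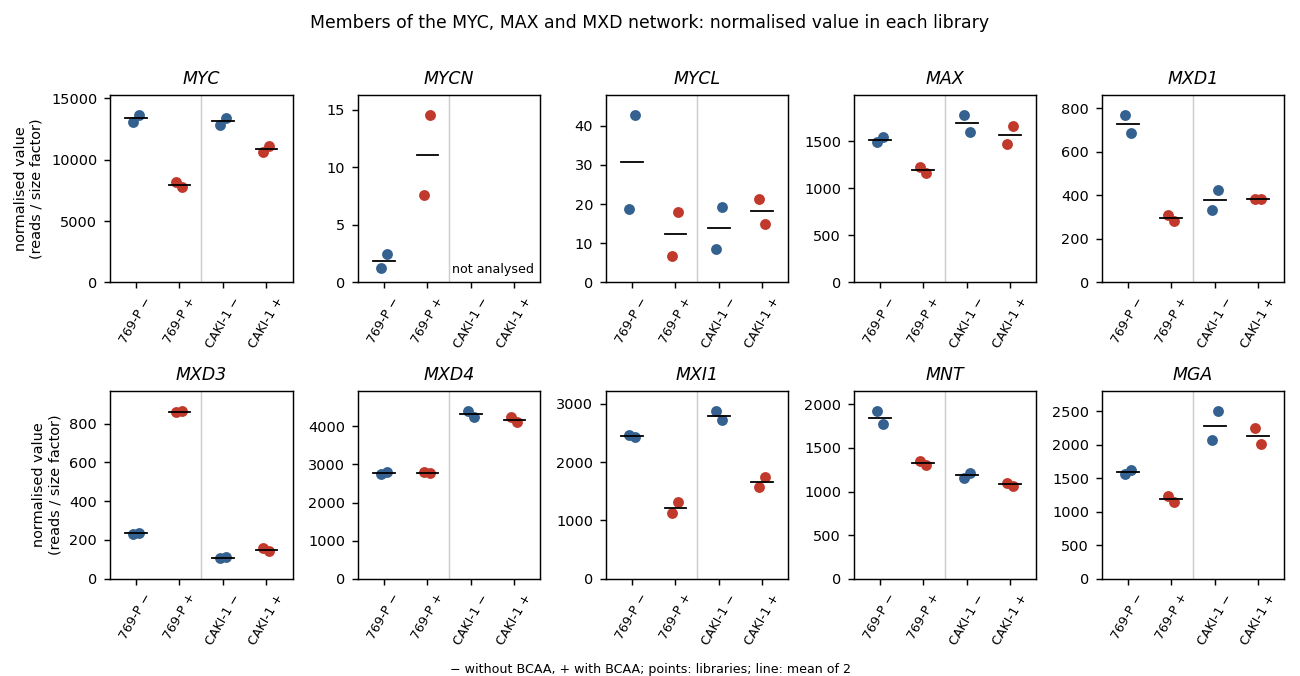
Normalised value (reads divided by the size factor, vertical axis from 0) of the 10 network genes in each library, without (blue, −) and with (red, +) BCAA, for 769-P and CAKI-1; points are libraries and the line is the mean of 2. In 769-P MXD3 sits at 860 and 864 with against 231 and 237 without BCAA, and MXD4 overlaps; MYCN was not analysed in CAKI-1.

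Among the activators, MYC, the family member present in most proliferating cells, had values of 8188 and 7749 in 769-P with BCAA and 13063 and 13648 without. Both libraries with BCAA were below both libraries without. The mean was 7969 ± 310 (SD, n = 2) with and 13355 ± 413 (SD, n = 2) without BCAA, a log2 fold change of -0.75 (SE 0.046, 95% interval -0.85 to -0.64, limma adjusted p = 1.1e-07). In CAKI-1 the values of MYC were 10640 and 11142 with BCAA and 12834 and 13424 without. The groups again did not overlap, and the fall was smaller, at -0.27 (SE 0.056, limma adjusted p = 0.0056). By size, MYC ranked 1440 among the 4069 genes called lower in 769-P and 1650 among the 1931 called lower in CAKI-1.

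MYCN, best known from neuroblastoma and from the developing nervous system, was near the limit of detection in 769-P. It had 10 and 17 reads with BCAA, or values of 7.58 and 14.5, and 1 and 2 reads without, or values of 1.24 and 2.45. The libraries with BCAA were higher than those without. The ratio of the summed reads, corrected for size factors, was 5.87 with an exact interval of 1.81 to 30.2 that covers counting error only. The log2 fold change was 2.05 (limma adjusted p = 0.039), and the call was lost without the filter on low values (adjusted p = 0.059) and with edgeR on the recovered reads (adjusted p = 0.053). DESeq2 on those reads gave MYCN no adjusted p.

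MYCL, first found amplified in small cell lung cancer, was also low. In 769-P it had values of 6.82 and 18.0 with BCAA and 18.6 and 42.8 without. These groups did not overlap, but the log2 fold change of -1.27 had an interval from -2.53 to -0.01 and was not called (limma adjusted p = 0.11). In CAKI-1 MYCL had values of 21.4 and 14.98 with BCAA and 8.55 and 19.3 without, which overlap (0.44, SE 0.52).

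MAX, the shared partner of the network, had values of 1230 and 1168 in 769-P with BCAA and 1489 and 1548 without. All libraries with BCAA were below those without, with a log2 fold change of -0.34 (SE 0.067, limma adjusted p = 0.0015). In CAKI-1 MAX had values of 1473 and 1660 with BCAA and 1782 and 1605 without. There the groups overlapped and no change was called (-0.11, 95% interval -0.30 to 0.07).

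Of the antagonists, MXD1, which is known to be induced as cells differentiate, fell in 769-P. Its values were 311 and 282 with BCAA and 770 and 687 without, so that it was 2.46 times as high without BCAA (log2 fold change -1.29, SE 0.11, limma adjusted p = 1.4e-06). In CAKI-1 the values of 384 and 381 with BCAA lay between the values of 333 and 425 without (0.03, 95% interval -0.27 to 0.32).

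MXD3 moved the other way and had the largest rise among antagonists. In 769-P it had values of 860 and 864 with BCAA and 231 and 237 without. The replicates differed by little and the mean was 3.68 times as high with BCAA (log2 fold change 1.88, SE 0.099, limma adjusted p = 2.8e-08), which placed MXD3 at rank 300 by size among the 4536 genes called higher. In CAKI-1 MXD3 had values of 157 and 145 with BCAA and 107 and 111 without. These groups did not overlap, yet the log2 fold change of 0.46 (SE 0.18) was not called (limma adjusted p = 0.10), and it was called when the spread was taken from all 8 libraries (adjusted p = 0.022).

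The exons of MXD3 share 926 bases with RAB24 on the same strand and 1158 bases with PRELID1 on the opposite strand, and whether counting used strand is not given in the sources used here. PRELID1, an intermembrane space carrier of phospholipids, rose by a log2 fold change of 0.31 in 769-P (limma adjusted p = 8.0e-04), and its change of 0.21 in CAKI-1 was not called (adjusted p = 0.052). RAB24, a small GTPase linked to autophagy, changed by -0.18 in 769-P without a call (adjusted p = 0.35) and fell by 0.84 on the log2 scale in CAKI-1 (adjusted p = 0.0047). The part of these overlaps in the values of MXD3 was not tested.

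MXI1, also called MXD2, fell in both lines. In 769-P it had values of 1130 and 1311 with BCAA and 2471 and 2429 without, a log2 fold change of -1.01 (SE 0.075, limma adjusted p = 5.2e-07). In CAKI-1 the values were 1581 and 1744 with BCAA and 2872 and 2723 without, a log2 fold change of -0.75 (SE 0.072, limma adjusted p = 4.1e-05). Neither line had overlapping groups, and in CAKI-1 MXI1 ranked 279 by size among the 1931 genes called lower.

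MXD4 was level. In 769-P its values of 2802 and 2770 with BCAA and 2746 and 2800 without overlapped, with a log2 fold change of 0.01 and an interval from -0.11 to 0.12. In CAKI-1 the values were 4246 and 4107 with BCAA and 4394 and 4254 without (-0.05, 95% interval -0.18 to 0.08). In both lines the interval left out a change of 1.5-fold in either direction.

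MNT, the antagonist that is expressed in most cell types, had values of 1352 and 1302 in 769-P with BCAA and 1919 and 1770 without, a log2 fold change of -0.47 (SE 0.067, limma adjusted p = 1.2e-04). In CAKI-1 its values of 1100 and 1067 with BCAA were below those of 1158 and 1210 without, and this difference was not called (-0.13, SE 0.077, limma adjusted p = 0.30). MGA, the largest protein of the family, had values of 1237 and 1148 with BCAA and 1564 and 1624 without in 769-P, a log2 fold change of -0.42 (SE 0.069, limma adjusted p = 3.8e-04). In CAKI-1 the values of MGA were 2249 and 2016 with BCAA and 2065 and 2499 without, which overlap (-0.09, 95% interval -0.30 to 0.11).

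**Figure D2:**
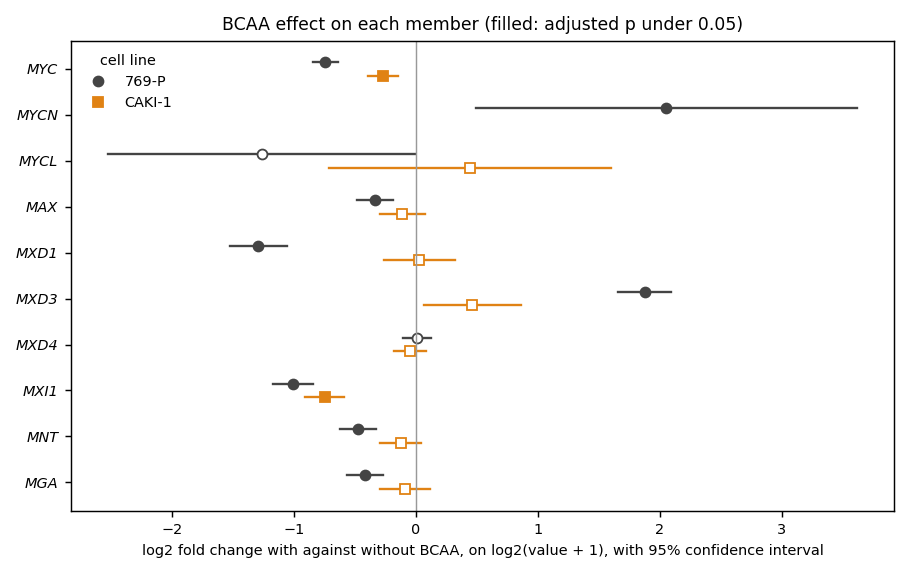
Log2 fold change with against without BCAA on log2(value + 1) (horizontal axis) for each network gene, with its 95% confidence interval, in 769-P (circles) and CAKI-1 (squares); filled symbols had an adjusted p under 0.05. In 769-P 8 genes are filled, from -1.29 for MXD1 to 2.05 for MYCN, and in CAKI-1 MYC (-0.27) and MXI1 (-0.75) are.

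These calls rest on 2 libraries per group. Leaving out 1 library of 769-P at a time cut the calls over all genes from 8605 to between 1831 and 2985, and MYC, MXD1 and MXD3 were called in each of the 4 fits (largest adjusted p 0.045, 0.047 and 0.040). MAX, MGA and MYCN were called in none of them (adjusted p up to 0.091, 0.089 and 0.18). MXI1 was lost without either library that had no BCAA (adjusted p up to 0.059), and MNT was called only without replicate 2 of that group (adjusted p up to 0.085 in the others). In CAKI-1 the same fits (limma) called 0 of 21347 genes, although between 4084 and 5590 genes had an unadjusted p under 0.05. MYC (adjusted p up to 0.26) and MXI1 (adjusted p up to 0.23) were thus not called without any 1 of those libraries; edgeR and DESeq2 were not run on 3 libraries. All called members kept their direction in every such fit. With 2 libraries on each side, the smallest p that exact permutation allows (two-sided) is 0.333.

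The BCAA effect itself was compared between the cell lines by the interaction term of a limma fit over the 8 libraries, in which 21.1% of 19406 genes were called. The effect differed for 4 of the 9 members measured in both lines. Among genes averaging 10 or more in each line, 4301 of 14371 were called, and so were the same 4 members. The difference in log2 fold change, 769-P minus CAKI-1, was -0.48 for MYC (SE 0.071, limma adjusted p = 3.2e-04) and -1.32 for MXD1 (SE 0.18, limma adjusted p = 1.7e-04). It was 1.41 for MXD3 (SE 0.19, limma adjusted p = 1.4e-04), which rose in 769-P. For MNT it was -0.35 (SE 0.099, limma adjusted p = 0.024), and leaving out any of 4 of the 8 libraries ended that call (adjusted p up to 0.11).

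For the other members the difference was not called, which does not show that they responded alike. MXI1 had a difference of -0.26 (95% interval -0.49 to -0.02, limma adjusted p = 0.12), MGA of -0.33 (-0.60 to -0.06, limma adjusted p = 0.084) and MAX of -0.23 (-0.47 to 0.01, limma adjusted p = 0.17). MXI1 was called without replicate 2 of 769-P with BCAA (adjusted p = 0.040), and MGA without replicate 2 of either CAKI-1 group (adjusted p = 0.047 and 0.017). For MXD4 the difference was 0.06 (-0.10 to 0.22), and for MYCL the interval was wide (-3.53 to 0.11).

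Levels of different genes were compared as the normalised value per kilobase of merged exons. MYC led in every group, at a mean of 2655 per kilobase with and 4450 without BCAA in 769-P and of 3629 and 4375 in CAKI-1. In 769-P with BCAA it was followed by MXD4 (395 per kilobase), MAX (271), MXI1 (265), MXD3 (167), MNT (152), MGA (67.6), MXD1 (46.7), MYCN (4.25) and MYCL (2.45). Of these neighbours, MAX and MXI1 overlapped between libraries, as did MYCN and MYCL. Without BCAA the order in 769-P after MYC was MXI1 (532), MXD4 (393), MAX (343), MNT (211), MXD1 (115), MGA (90.3), MXD3 (45.4), MYCL (6.07) and MYCN (0.71), and no neighbours overlapped. MXI1 was thus the highest antagonist without BCAA and MXD4 the highest with it, and MXD3 was the lowest antagonist without BCAA and ranked above MNT, MGA and MXD1 with it.

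In CAKI-1 the order of the members was the same in both groups. After MYC came MXD4 (592 per kilobase with and 613 without BCAA), MXI1 (361 and 607), MAX (354 and 382), MNT (124 and 136), MGA (121 and 129), MXD1 (60.3 and 59.6), MXD3 (29.2 and 21.2) and MYCL (3.59 and 2.75). MNT and MGA overlapped in both groups, MXI1 and MAX with BCAA, and MXD4 and MXI1 without. The check by longest transcript in place of merged exons used only the mean over all 4 libraries of a line. It kept the place of all 9 members in CAKI-1 and of 6 of 10 in 769-P. There MXD4 passed MXI1 and MGA passed MXD1. The order within each group was not taken this way.

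**Figure D3:**
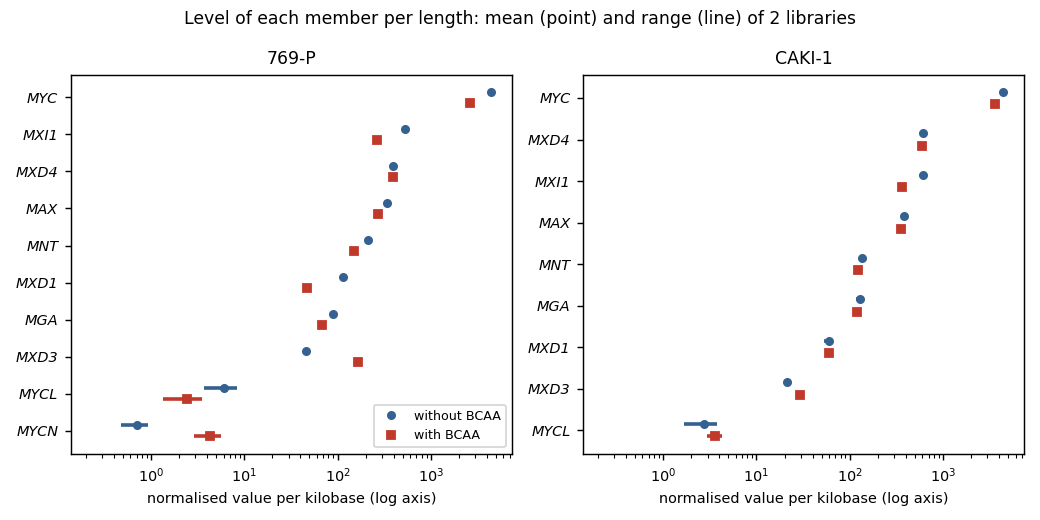
Normalised value per kilobase of merged exons (horizontal log axis) of each network gene in 769-P (left) and CAKI-1 (right), without (blue circles) and with (red squares) BCAA; the symbol is the mean of 2 libraries and the line their range, and genes are ordered by the level without BCAA. MYC is highest in each group, and MXD3 in 769-P moves from 45.4 without to 167 with BCAA.

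The balance of activators and antagonists was taken as the ratio of their summed values per kilobase in each library, a quantity that does not depend on the size factor. In 769-P it was 2.52 and 2.35 with BCAA and 3.11 and 3.32 without. The ratios with BCAA were below those without, while both sums were lower with BCAA, the activators at 2733 and 2591 per kilobase against 4357 and 4557 and the antagonists at 1083 and 1103 against 1399.9 and 1373. In CAKI-1 it was 2.75 and 2.89 with BCAA and 2.73 and 2.87 without, and the groups overlapped. MYC made up at least 99.6% of the activator sum in every library, so this ratio is in effect MYC over the antagonists. The members were chosen as a family and the ratio is a description with no test.

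Within the antagonist sum of 769-P, MXD3 took 15.4% and 15.2% with BCAA against 3.20% and 3.35% without. MXI1 took 22.6% and 25.8% with against 38.3% and 38.4% without, and MXD4 took 36.7% and 35.6% against 27.8% and 28.9%. The make-up of the antagonist pool thus differed between the groups in 769-P by more than its replicates did. In CAKI-1 MXI1 took 26.6% and 29.5% of the sum with BCAA against 39.7% and 37.8% without, and MXD4 46.7% and 45.3% against 39.7% and 38.6%. MXD3 was at most 2.36% of the sum in any CAKI-1 library. These shares rest on merged exon length, which for MXD3 was 5154 bases against 2279 for its longest transcript. Shares by longest transcript were not taken, so the place of MXD3 beside MXI1 in 769-P with BCAA may depend on the length used.

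**Figure D4:**
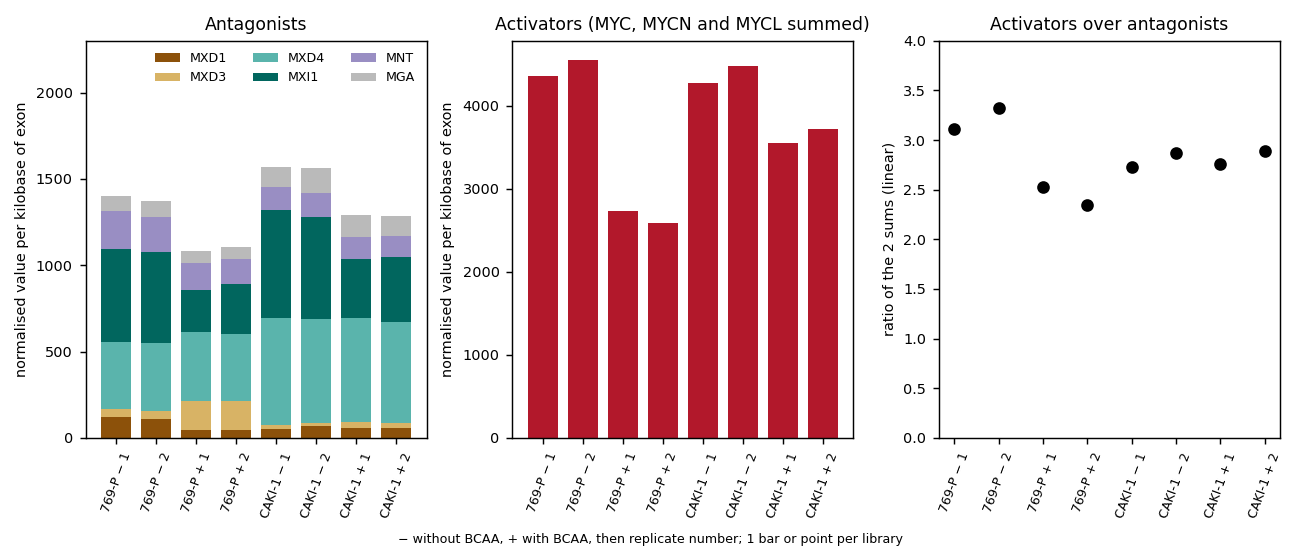
Summed values per kilobase of the 6 antagonists (left, stacked by gene) and of the activators (middle), and the ratio of the sums on a linear axis from 0 (right), 1 bar or point per library. The ratio is 2.35 to 2.52 with and 3.11 to 3.32 without BCAA in 769-P, and 2.73 to 2.89 in all 4 CAKI-1 libraries.

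The genes around the network were taken as 8 lists with 94 genes. Each list's median stood beside a median over all genes tested of -0.02 in 769-P and -0.01 in CAKI-1. Over all genes tested, 20.3% were called higher and 18.2% lower in 769-P, and 10.8% and 9.05% in CAKI-1. Among genes averaging 10 or more, 4709 of 16047 were higher and 4221 lower in 769-P. In CAKI-1 2398 of 15550 such genes were higher and 2051 lower. Whether a list differs from genes of like level was not tested. The parallel MLX arm, in which MLX pairs with the glucose-sensing factor MondoA (MLXIP), held 1 gene called higher and 2 lower of 5 in each line. TXNIP, a MondoA target that limits glucose uptake, had values of 2583 and 3142 in 769-P with BCAA and 16413 and 16943 without (log2 fold change -2.55, limma adjusted p = 3.1e-10), and of 6023 and 9268 with and 16670 and 16119 without in CAKI-1 (-1.13, limma adjusted p = 2.7e-04). ARRDC4, its paralogue, fell by 2.34 and 0.79 on the log2 scale. MLXIP rose by 0.34 in 769-P and 0.37 in CAKI-1, and MLX and MLXIPL were not called in either.

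Genes of the SIN3 corepressor, which the MXD proteins recruit, were called higher for 8 of 11 in 769-P, with 1 lower, and for 5 of 11 in CAKI-1, with 0 lower. The list medians were 0.50 and 0.21. SAP30 rose by 1.07 in 769-P and 0.50 in CAKI-1, the histone deacetylase HDAC1 by 0.69 and 0.34, and the histone chaperone RBBP7 by 0.70 and 0.42. ING2, a reader of methylated histone H3, rose by 0.75 in 769-P and had 0.26 in CAKI-1 with no call, and SUDS3 rose by 0.29 and 0.28. The scaffold SIN3B fell by 0.49 on the log2 scale in 769-P and was at 0.00324 in CAKI-1 with no call, while SIN3A was not called in either line.

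Genes for MYC coactivators were called higher for 5 and lower for 2 of 11 in 769-P, and higher for 6 and lower for 1 of 11 in CAKI-1. The helicases RUVBL1 (0.48 and 0.38) and RUVBL2 (0.34 and 0.40) rose in 769-P and in CAKI-1, as did ACTL6A (0.53 and 0.19). HCFC1 rose in CAKI-1 (0.46), with 0.08 and no call in 769-P. The chromatin remodeller EP400 fell by 0.41 on the log2 scale in 769-P, with -0.05 and no call in CAKI-1, and the acetyltransferase KAT5 fell by 0.31 on that scale in CAKI-1, with -0.17 and no call in 769-P.

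Genes that act on the stability of MYC protein were called higher for 6 and lower for 5 of 12 in 769-P, and higher for 5 and lower for 1 of 12 in CAKI-1. The mitotic kinase AURKA, which shields MYCN protein from the FBXW7 ligase, had values of 5455 and 5074 with BCAA and 1414 and 1244 without in 769-P, a log2 fold change of 1.99 (limma adjusted p = 9.0e-10), and it rose by 1.35 in CAKI-1. SKP2, a ubiquitin ligase subunit that also acts on CDKN1B, rose by 1.47 and 1.32. CIP2A, an inhibitor of the phosphatase that destabilises MYC, rose by 1.23 and 1.37. The deubiquitinase USP36 fell by 0.75 on the log2 scale in 769-P, with -0.13 and no call in CAKI-1, and its relative USP28 rose by 0.32 in CAKI-1, with 0.25 and no call in 769-P. AURKA, SKP2 and CIP2A are also genes of the dividing cell, and in bulk RNA fewer cells of a kind and less RNA per cell cannot be told apart.

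Of the polycomb complex that holds MGA, 8 genes could be tested. In 769-P 6 rose and 1 fell, and in CAKI-1 2 rose. TFDP1, the dimer partner of E2F factors, rose by 0.72 and 0.76, and PCGF6, the subunit that defines the complex, by 0.45 and 0.29. CBX3 rose by 0.33 in 769-P, where RYBP fell by 0.29 on the log2 scale, and in CAKI-1 their values of 0.13 and -0.15 were not called.

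Genes that MYC is known to induce were mostly higher with BCAA where called, while MYC mRNA was lower. Of 29 tested, 18 were higher and 7 lower in 769-P (median 0.23), and 16 were higher and 1 lower in CAKI-1 (median 0.25). The shares over all genes tested were 20.3% higher and 18.2% lower in 769-P, and 10.8% and 9.05% in CAKI-1. The phosphatase CDC25A, which opens the way into S phase, had values of 739 and 646 with BCAA and 231 and 161 without in 769-P (1.83, limma adjusted p = 1.9e-06), and of 1206 and 1071 with and 267 and 221 without in CAKI-1 (2.22, limma adjusted p = 7.2e-07). The mitochondrial co-chaperonin HSPE1 rose by 1.48 and 0.56, LDHA by 0.48 and 0.77, and the Ran exchange factor RCC1 by 0.75 and 0.53.

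Other MYC-induced genes fell in 769-P. ODC1, the first enzyme of polyamine synthesis, had values of 15250 and 14694 with BCAA and 34475 and 33448 without in that line (-1.18, limma adjusted p = 7.8e-10), and was level in CAKI-1 (0.01, 95% interval -0.11 to 0.13). The hexokinase HK2 fell by 1.26 on the log2 scale in 769-P, and its difference of 0.22 in CAKI-1 was not called. The single MYC-induced gene called lower in CAKI-1 was NPM1, a nucleolar chaperone named here after its values were seen (-0.37), which rose by 0.12 in 769-P. The lists overlap with the cell cycle, ribosome and glycolysis in function, and the part of MYC in these changes was not tested.

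Genes that MYC is known to repress moved in both directions, with 3 higher and 4 lower of 12 in 769-P and 2 higher and 4 lower of 11 in CAKI-1. NDRG1, which takes its name from repression by N-MYC and responds to hypoxia and stress, had values of 5725 and 6143 with BCAA and 46716 and 47182 without in 769-P, a log2 fold change of -2.98 (limma adjusted p = 3.5e-12). In CAKI-1 it fell by 1.16 on the log2 scale. The cyclin-dependent kinase inhibitor CDKN1A fell by 0.51 on the log2 scale in both lines, and GADD45A fell by 1.5 on that scale in 769-P, with -0.13 and no call in CAKI-1. The receptor PDGFRB rose by 1.88 and 0.58, NDRG2 rose by 1.56 in 769-P (0.34 with no call in CAKI-1), and the matrix protein THBS1 rose by 1.27 in CAKI-1 (0.10 with no call in 769-P).

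**Figure D5:**
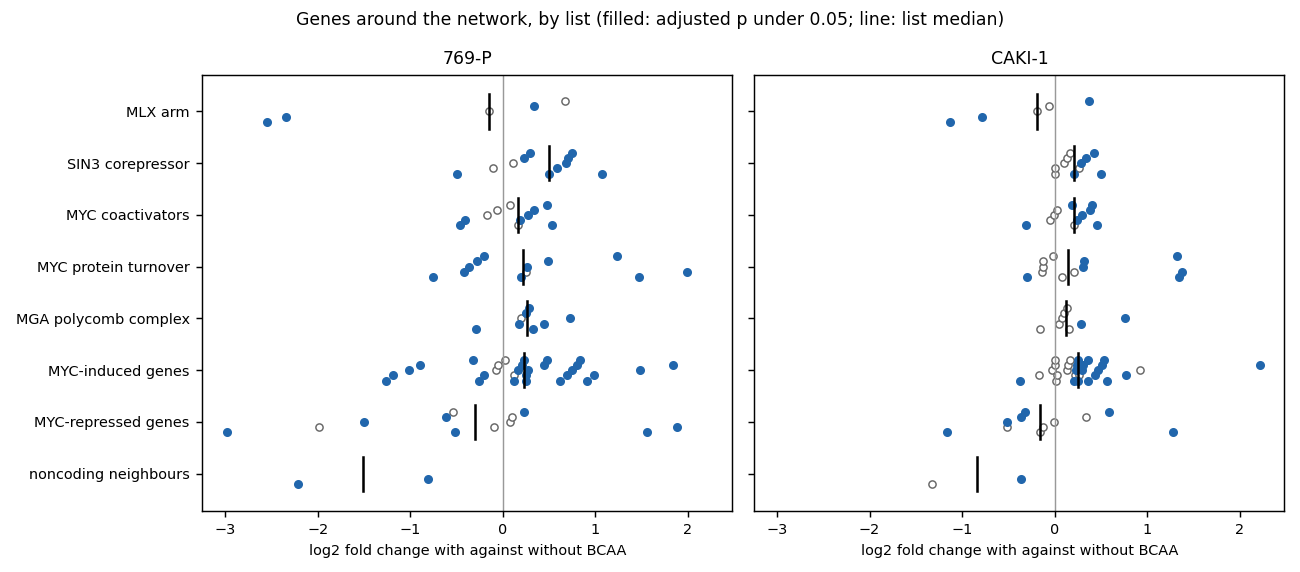
Log2 fold change with against without BCAA (horizontal axis) of each gene of the 8 lists around the network in 769-P (left) and CAKI-1 (right); filled points had an adjusted p under 0.05 and the vertical line is the list median. The SIN3 corepressor list has its median at 0.50 and 0.21, and TXNIP, ARRDC4 and NDRG1 are the points furthest to the left among genes tested in 769-P.

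Of the noncoding genes beside MYC, PVT1, the host of several microRNAs that is often gained together with MYC, fell in both lines. It had values of 401 and 358 in 769-P with BCAA and 707 and 624 without (-0.81, limma adjusted p = 7.0e-05). In CAKI-1 its values were 597 and 595 with and 763 and 770 without (-0.36, limma adjusted p = 0.014). CASC11, which lies next to the MYC start, had 1 and 1 reads with and 6 and 6 reads without BCAA in 769-P. In CAKI-1 it had 0 and 3 reads with and 9 and 1 without. It was called lower in 769-P (-2.22, limma adjusted p = 0.036), a call that rests on these few reads. In CAKI-1 its change of -1.32 was not called.

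Of 10881 genes averaging at least 100 in each table, the 5 whose pair of log2 fold changes lay closest to that of MYC were LAMB2 (-0.76 in 769-P and -0.26 in CAKI-1), RPL32P3 (-0.73 and -0.28), TSGA10 (-0.74 and -0.25), CCDC57 (-0.77 and -0.28) and TSC2 (-0.77 and -0.29). Their distances from MYC were between 0.0162 and 0.0263 on the log2 scale, over the same 8 libraries. LAMB2 encodes a laminin chain and TSC2 the GTPase-activating subunit that restrains mTORC1. Of the 5, LAMB2 and TSC2 were called lower in both lines, and RPL32P3, TSGA10 and CCDC57 in 769-P alone.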

How the data were processed

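Total RNA of 8 libraries was sequenced, and the authors deposited 1 table per cell line of a signal, each gene's reads over the size factor of the library, with no length correction. The submitters' processing notes name Trim Galore, TopHat2 2.1.0, SAMtools 1.3.1, HTSeq 0.6.0, DESeq and DESeq2, and the build hg38. The annotation, the counting mode and whether strand was used are not given in the sources used here. All values (100%) were whole multiples of 1 read at a tolerance of 0.01 reads, and a gene was listed with at least 2 reads over its 4 libraries. Symbols came from GENCODE 29 (GRCh38) or a separate list of gene names for 25032 of 25431 identifiers in 769-P and 23881 of 24190 in CAKI-1. For the network and list genes the separate list took precedence.

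Grouping followed the labels (cell line and treatment). Genes averaging 1 or more were tested with limma 3.58.1 in R 4.3.3 (lmFit, eBayes with trend) on log2(value + 1), within each line and, for the difference, over 8 libraries, with Benjamini-Hochberg adjustment at 0.05. Library depth limits precision for MYCN and MYCL, which had under 40 reads in any library. Alternatives changed the pseudocount, filter, scaling, block, spread, threshold and libraries, and applied count tests to the reads recovered from the signal (DESeq2 1.42.0, edgeR 4.0.16). The tests were tried on simulated data. The members, the lists and the tests were chosen with earlier results of these data known. All members were named, with up to 4 genes per list and line, those with the largest absolute change among called genes with a mean of at least 10 whose groups did not overlap. Some genes that the rule names are not reported here. A named gene's value in the other line was given beside it. SIN3A, SIN3B, NPM1, CASC11, MLX, MLXIPL and the neighbours of MXD1 and MXD3 were added after their values were seen.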

Additional observations from a re-analysis of the deposited data

Results flagged for a closer look

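The effect of BCAA differed between the cell lines, by a test of the difference itself (limma interaction over 8 libraries, Benjamini-Hochberg over 19406 genes), for MYC (-0.48, adjusted p = 3.2e-04), MXD1 (-1.32, adjusted p = 1.7e-04), MXD3 (1.41, adjusted p = 1.4e-04) and MNT (-0.35, adjusted p = 0.024). Each value is the log2 fold change in 769-P minus that in CAKI-1. In 769-P the libraries with BCAA were deeper than those without, and the part of depth in these differences was not tested.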

How the results depend on the processing

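Of the alternatives for the members' fold changes, 397 kept direction and side of the threshold, 37 lost the call, 5 gained it and 6 turned direction. The 397 include MYCN in 769-P with DESeq2, which had no adjusted p. Correlations of same-numbered deviations ran from -0.20 to 0.09 over 10881 genes. Within a line they were -0.084 in 769-P and -0.13 in CAKI-1. Each rests on 1 deviation per group, so they cannot show whether the replicate numbers pair the samples. With a replicate block 9 members were called in 769-P, MYCL being added (limma adjusted p = 0.049), 2 in CAKI-1 and 4 for the difference. Within a line that fit takes a further term from 4 libraries, so its p-values rest largely on the spread shared across genes. With a fold of at least 1.5 added, 5 of the 8 members were called in 769-P, 1 of 2 in CAKI-1 and 2 of 4 for the difference, and genes of the lists numbered 32 of 71 in 769-P, 10 of 47 in CAKI-1 and 17 of 37 for the difference. Quantile normalisation left 31 list genes called in CAKI-1. Leaving out 1 library gave 3 to 4 members and 28 to 39 list genes in 769-P, and 0 of both in CAKI-1, where 0 of all genes were called; the lone library is then assumed to vary like the other group. Direction turned, with no call, for MXD4 in 769-P under quantile normalisation (-0.0275) and without 1 library (-0.0075 to 0.0207), and without 1 library in CAKI-1 for MYCL (-0.10 to 0.99), MXD1 (-0.15 to 0.20) and MGA (-0.23 to 0.0442). The log2 balance with minus without BCAA in CAKI-1, 0.0135, became -0.0608 without division by length and -0.0222 to 0.0492 without 1 library; in 769-P it was -0.40, and -0.45 to -0.35 without 1 library. The order of levels kept 6 places of 10 in 769-P by longest transcript. The cause of these changes was not tested, other than fewer samples where a library was left out. Depth limits MYCN and MYCL, whose reads are few.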
